A study of Mus musculus with 5 samples.

Results

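Peaks of acetylated histones were examined at 10 cytokine receptor genes of memory CD8+ T cells, chosen by name: Il10ra, Il10rb, Il7r, Il2ra, Il18r1, Il12rb1, Il12rb2, Il21r, Il6st and Ifngr1. They are 10 of the 21951 protein-coding genes of the GENCODE annotation of the mouse genome (GRCm38). For each gene, the peaks of 5 ChIPseq libraries that lay in the gene body or within 30 kb on both sides of it were taken, and this stretch is called the window of the gene. The study asked whether loss of the pyruvate dehydrogenase complex in T cells alters histone acetylation in memory (TM) cells. In its methods, OT-I CD8+ T cells, whose transgenic receptor sees a single ovalbumin peptide, were activated with that peptide for 3 days and cultured with IL-15 for 4 days. The 2 WT libraries were labelled wildtype, and the 3 PDH_Mutant libraries came from TPdh-/- cells, in which a floxed Pdha1 gene was crossed to a Cre driven by the CD4 promoter. That promoter is active in all developing T cells, so the deletion preceded the culture. The mice were of both sexes and 8 to 12 weeks old, and nothing in the labels says which mouse each library came from. The methods name an antibody to acetyl-lysine on histones, and the labels narrow it to lysine 18. All 5 libraries came from cells that had passed through the same IL-15 culture.

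Cytokine receptors of this family work as pairs or triplets of chains on the cell surface, and most of them switch on Janus kinases that phosphorylate STAT factors inside the cell, while the IL-18 receptor signals through the adaptor Myd88. Which chains a T cell makes decides which cytokines it can sense: the IL-7 receptor chain marks memory precursors that live on IL-7, the IL-2 receptor alpha chain rises after activation, and the IL-12, IL-18 and IL-21 receptors tune effector function. Acetylation of histone tails is a mark of promoters and enhancers in use, and a peak here is a stretch where the precipitated DNA exceeded the background estimated by the peak caller.

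The lists differed in length, and that touches every result below. WT 1 held 15962 peaks and WT 2 held 8859, while PDH_Mutant 1, 2 and 3 held 4920, 5419 and 9418. The weakest peak kept in each list had a −log10 q of 1.0 to 1.03. Fold enrichments and q values were not scaled between lists, so each peak is given by its fold and by its place within its own list, where rank 1 and the 100th percentile mark the highest −log10 q and a percentile of 0 means that no peak was called. The lists hold no read numbers, so depth is unknown and a missing peak says only that none was called. Promoter peaks, meaning peaks within 3000 bp of an annotated start site, were called at 8, 6, 3, 4 and 6 of 8 CD8 T cell marker genes in WT 1, WT 2 and PDH_Mutant 1, 2 and 3. Cd8a itself had such a peak in WT 1 alone, at the 16.0 percentile, whereas Cd8b1 had a promoter peak in all 5 libraries. Both CD4 T cell markers had a promoter peak in WT 1, 1 of them in WT 2 and 0 in the TPdh-/- libraries. Of the myeloid and the non-immune markers, 0 of 6 and 0 of 6 had a promoter peak in any library. The shares of all protein-coding genes with such a peak are given with the receptor genes below. The part of these marker differences in the receptor results was not tested. The loss of Pdha1 cannot be read from peaks.

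Among the receptor genes, a promoter peak was called at 8 of 10 in WT 1, 7 in WT 2, 3 in PDH_Mutant 1, 5 in PDH_Mutant 2 and 7 in PDH_Mutant 3. The WT mean was 7.5 ± 0.707 genes (SD, n = 2) and the TPdh-/- mean was 5.0 ± 2.0 (SD, n = 3), a difference of 2.5, and PDH_Mutant 3 reached the number of WT 2. Without PDH_Mutant 1 the difference fell to 1.5. Of all protein-coding genes, 42.1% had a promoter peak in WT 1, 24.8% in WT 2, 15.3% in PDH_Mutant 1, 16.5% in PDH_Mutant 2 and 27.9% in PDH_Mutant 3. The share of receptor genes lay above this background in each library and followed it up and down. These genes were chosen with earlier results of these data known, so their excess over the background is a description and was not tested. Il10rb and Ifngr1 had a promoter peak in all 5 libraries, where 10.9% of coding genes did. Another 6 receptor genes had one in 1 to 4 libraries, where 32.4% of coding genes did. Il12rb1 and Il21r had none in any library, as did 56.8% of coding genes. No receptor gene had a promoter peak in both WT libraries and in none of the TPdh-/- libraries, a pattern of 2.2% of coding genes.

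**Figure D1:**
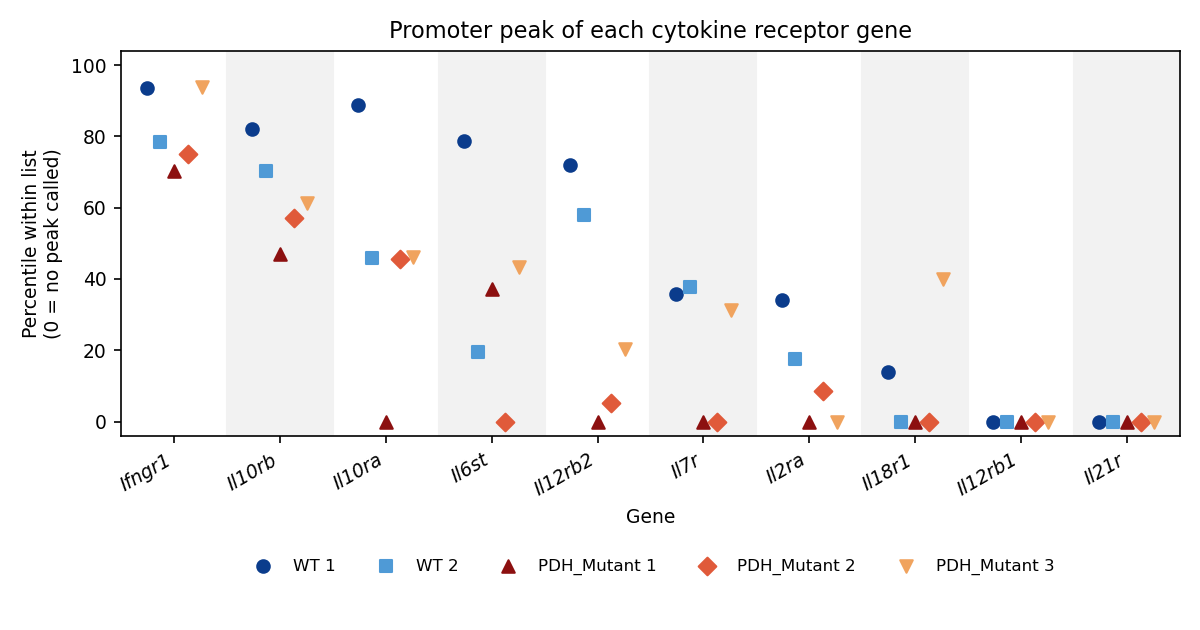
Percentile by −log10 q of the promoter peak of each receptor gene within the list of its own library (vertical axis, 0 where no peak was called), with 1 point per library and genes ordered by their mean over the 5 libraries. Ifngr1 and Il10rb lie above 0 in all 5 libraries, 6 genes drop to 0 in at least 1 library, and Il12rb1 and Il21r stay at 0.

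Ordered by the mean percentile of the promoter peak over the 5 libraries, Ifngr1 stood first at 82.2, followed by Il10rb at 63.6, Il10ra at 45.3, Il6st at 35.7, Il12rb2 at 31.1, Il7r at 21, Il2ra at 12.1 and Il18r1 at 10.8. Within a library, Ifngr1 stood above Il10rb in all 5, Il10rb above Il10ra and Il10ra above Il6st in 4 of 5 each, and Il6st above Il12rb2 in 3 of 5. Each of the pairs from Il12rb2 down to Il18r1 kept its order in 3 libraries, was turned in 1 and was level in 1, with no peak for either gene. Below Ifngr1, the order of these neighbours therefore changed between libraries.

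The sequences that follow show where the peaks lay relative to the start sites that RefSeq gives on GRCm38. They come from Il7r, Il12rb2, Il18r1 and Il6st, whose promoter peaks came and went between libraries, and from the strongest region of all 5 libraries. Promoter sequences run from 250 bases before to 50 after the start site. Region sequences are the central 300 bases of the stretch shared by the peaks of every library that had a peak there. All are written 5′ to 3′ on the strand of the receptor gene. Capitals mark matches, on either strand, to TTCNNNGAA, a STAT motif, to TGANTCA, an AP-1 motif, to TGTGGTTT, a RUNX motif, or to CACTTCCT, an ETS motif. These matches do not overlap each other here. Of 32851 promoter windows, 8.3% hold the STAT letters, 7.81% the AP-1 letters, 1.78% the RUNX letters and 4.07% the ETS letters. Of 18406 windows of this length at the centres of merged regions, the shares are 9.79%, 8.08%, 3.62% and 6.19%. A merged region joins overlapping peaks of the lists, so those windows were placed differently from the region sequences printed here. Of the 10 receptor genes, 7 were matched in the promoter table, and Il10ra, Il10rb and Il12rb1 were not. The promoter peak of Il2ra came and went too, but its promoter window (chr2:11642542-11642841) is not printed. That window holds 1 ETS match and was overlapped by no peak of any library. The first pair belongs to Il7r, the promoter at chr15:9529827-9530126 and the upstream region at chr15:9533488-9533787, both on the reverse strand:
Il7r promoter: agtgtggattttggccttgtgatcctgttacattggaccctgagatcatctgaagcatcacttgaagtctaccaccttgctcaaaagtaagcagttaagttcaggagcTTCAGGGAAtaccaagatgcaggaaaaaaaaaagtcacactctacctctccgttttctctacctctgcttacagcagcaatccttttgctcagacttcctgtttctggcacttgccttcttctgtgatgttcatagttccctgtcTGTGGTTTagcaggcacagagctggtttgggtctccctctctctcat
Il7r upstream region: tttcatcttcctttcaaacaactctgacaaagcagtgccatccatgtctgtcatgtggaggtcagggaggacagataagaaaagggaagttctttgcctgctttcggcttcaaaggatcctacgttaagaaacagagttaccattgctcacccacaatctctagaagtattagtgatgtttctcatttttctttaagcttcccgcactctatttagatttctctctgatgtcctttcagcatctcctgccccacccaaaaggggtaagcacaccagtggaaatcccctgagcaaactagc
The promoter window of Il7r was poor in CpG, with 1 such dinucleotide and 45.7% GC, where the median promoter window holds 7 and 52.7%. It was overlapped by no peak of any library, and it holds 1 STAT and 1 RUNX match. The upstream sequence was taken from the stretch shared by the peaks of WT 1, WT 2 and PDH_Mutant 3, so it lay inside all of them by choice. It holds no match to the 4 motifs.

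The next set gives promoter windows that peaks did overlap, of Il12rb2 at chr6:67376139-67376438 on the reverse strand, of Il18r1 at chr1:40465756-40466055 on the forward strand and of Il6st at chr13:112463820-112464119 on the forward strand:
Il12rb2 promoter: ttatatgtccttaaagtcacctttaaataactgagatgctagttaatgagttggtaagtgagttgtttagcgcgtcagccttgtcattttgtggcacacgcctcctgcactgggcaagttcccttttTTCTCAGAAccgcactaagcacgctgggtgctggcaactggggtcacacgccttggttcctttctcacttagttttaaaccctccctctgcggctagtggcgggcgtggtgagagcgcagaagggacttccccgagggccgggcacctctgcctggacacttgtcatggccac
Il18r1 promoter: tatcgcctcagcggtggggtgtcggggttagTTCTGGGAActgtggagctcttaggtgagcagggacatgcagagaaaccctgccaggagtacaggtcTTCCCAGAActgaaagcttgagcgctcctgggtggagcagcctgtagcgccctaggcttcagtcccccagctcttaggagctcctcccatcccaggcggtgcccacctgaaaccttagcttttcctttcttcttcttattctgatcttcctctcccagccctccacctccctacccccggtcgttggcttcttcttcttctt
Il6st promoter: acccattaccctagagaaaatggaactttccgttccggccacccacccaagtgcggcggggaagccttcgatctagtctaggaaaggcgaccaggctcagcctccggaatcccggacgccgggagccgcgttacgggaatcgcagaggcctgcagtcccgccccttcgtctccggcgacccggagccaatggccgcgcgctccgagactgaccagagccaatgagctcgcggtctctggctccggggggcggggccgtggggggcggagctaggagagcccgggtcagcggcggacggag
The Il12rb2 window, with 1 STAT match, lay inside peaks of 4 libraries, all but PDH_Mutant 1. The Il18r1 window, with 2 STAT matches, belongs to 1 of 3 start sites given for that gene and lay inside peaks of WT 1 and PDH_Mutant 3. The windows of the other start sites, chr1:40465302-40465601 and chr1:40465371-40465670, hold no match to the motifs and were overlapped by no peak. The Il6st window was the richest in CpG of those printed, with 33 and 68.3% GC, and holds no match. It lay inside the peaks of both WT libraries, PDH_Mutant 3 covered 132 of its 300 bases, and the PDH_Mutant 1 peak began just after it.

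Last come the central bases of both regions near Il2ra that had a peak in all 5 libraries, at chr2:11636831-11637130 upstream of Il2ra and at chr2:11705719-11706018 near the start of its neighbour Il15ra, on the forward strand:
Il2ra upstream region: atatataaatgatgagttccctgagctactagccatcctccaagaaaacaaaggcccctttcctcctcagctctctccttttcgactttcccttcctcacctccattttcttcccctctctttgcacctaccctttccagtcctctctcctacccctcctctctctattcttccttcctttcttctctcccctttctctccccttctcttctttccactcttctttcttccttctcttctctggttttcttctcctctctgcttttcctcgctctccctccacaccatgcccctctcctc
Il15ra start region: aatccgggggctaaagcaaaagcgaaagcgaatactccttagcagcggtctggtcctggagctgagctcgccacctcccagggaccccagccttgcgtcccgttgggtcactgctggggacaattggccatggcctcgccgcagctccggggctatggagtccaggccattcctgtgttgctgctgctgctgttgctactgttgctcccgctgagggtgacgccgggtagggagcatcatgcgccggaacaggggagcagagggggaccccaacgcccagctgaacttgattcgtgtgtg
The upstream piece is a long run of pyrimidines with 2 CpG and 49.0% GC, the piece near Il15ra has 17 CpG and 62.7% GC, and neither holds a match to the 4 motifs. The median window of this length at the centre of a merged region has 5 CpG and 50.3% GC.

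IL-10 is a cytokine that restrains inflammation, and its receptor joins a ligand-binding chain, Il10ra, to a chain shared with other cytokines of the family, Il10rb. Il10ra (ENSMUSG00000032089.16) lies at chr9:45253837-45269149 on the reverse strand. Its promoter peak had a rank of 1810 in WT 1, 4782 in WT 2, 2951 in PDH_Mutant 2 and 5066 in PDH_Mutant 3, with folds of 2.73, 2.26, 2.47 and 2.32, and none was called in PDH_Mutant 1. In percentiles these were 88.7, 46.0, 45.6 and 46.2, so WT 1 stood apart and the other 3 libraries with a peak lay within 1 percentile point of each other across genotypes. The peak was 1298 bp wide in WT 1, 551 bp in WT 2, 662 bp in PDH_Mutant 2 and 2159 bp in PDH_Mutant 3. All 4 peaks lay over the first part of the gene, and PDH_Mutant 3 alone reached across the start site. The Il10ra window also held a peak centred 33317 bp into the gene direction from the start in WT 1 and one at 33178 bp in PDH_Mutant 3, and a pair of peaks at 21964 bp and -25307 bp that WT 1 alone had.

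Il10rb (chr16:91406164-91425834, forward strand) had a promoter peak in every library, with folds of 2.61 and 2.73 in WT and 2.72, 2.72 and 2.60 in TPdh-/-. The fold did not separate the groups (WT 2.67 ± 0.0859, n = 2, TPdh-/- 2.68 ± 0.0694, n = 3, exact permutation test, two-sided p = 0.8). The percentile did, at 82.0 and 70.4 in WT against 47.0, 57.1 and 61.3 in TPdh-/- (76.2 ± 8.22 against 55.1 ± 7.37, exact permutation test, two-sided p = 0.2, the smallest that 2 libraries against 3 allow). Its rank number ran from 2324 in PDH_Mutant 2 to 3644 in PDH_Mutant 3, with the WT libraries at 2873 and 2625 in between, so the position counted from the top of the list did not separate the groups. Farther on, at chr16:91442840-91447511, WT 1 and WT 2 each had a peak of unusual breadth, 4672 and 4452 bp, which put both in the 99.9 percentile of width of their lists. PDH_Mutant 1 had a peak of 1228 bp within that stretch and the other TPdh-/- libraries had none. Its enrichment was low in all 3 libraries, with folds of 1.40, 1.54 and 1.73.

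**Figure D2:**
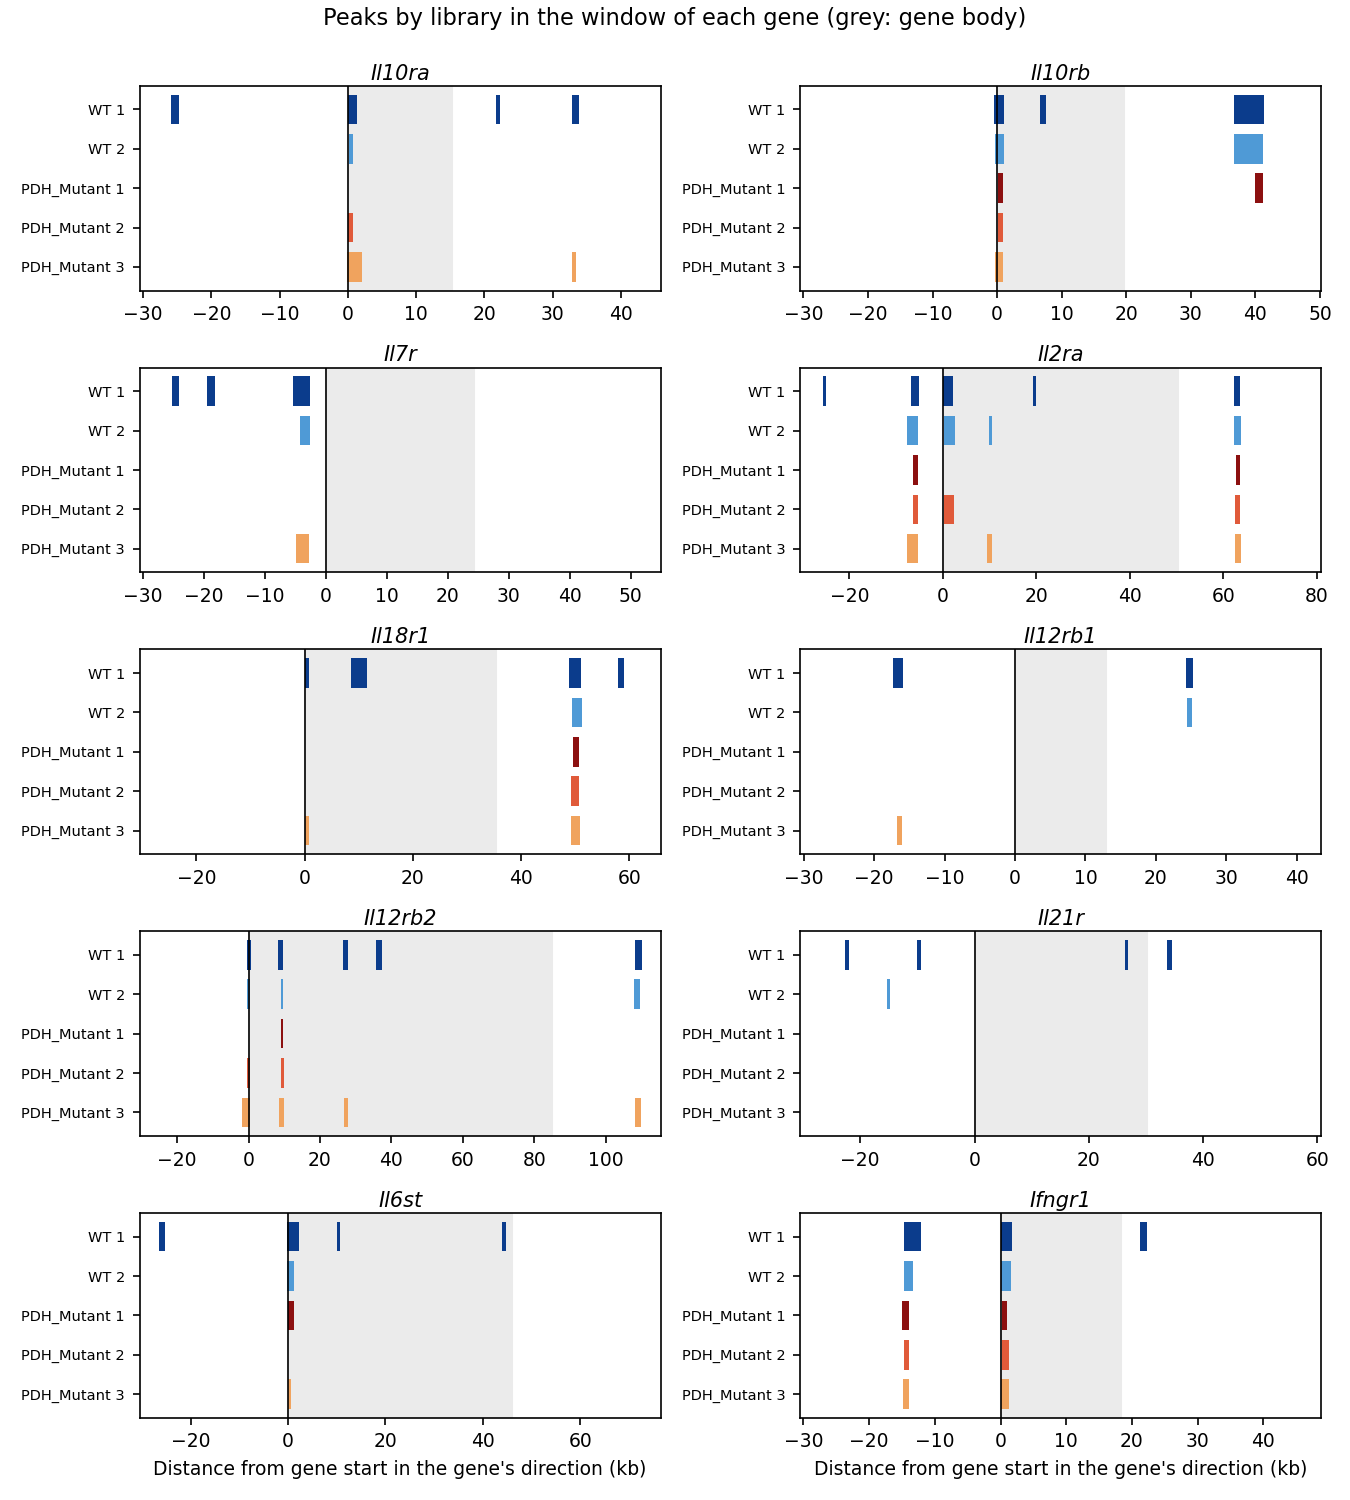
Peaks of each library in the window of each receptor gene, drawn to scale by distance from the gene start in the direction of the gene (horizontal axis, kb), with the gene body in grey. The Il7r peaks lie wholly upstream of the start in WT 1, WT 2 and PDH_Mutant 3, the broad Il10rb peaks beyond the gene end are in both WT libraries, and Il21r has peaks in WT libraries alone.

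The receptors for IL-7, IL-2 and IL-21 share the common gamma chain and each adds a chain of its own. Il7r, the alpha chain of the IL-7 receptor, lies at chr15:9505788-9530176 on the reverse strand, and its body held no peak in any library. The peak counted at its promoter lay upstream, between chr15:9532810 and 9535602, with its near edge 2634 bp from the start site in WT 1, 2656 bp in WT 2 and 2728 bp in PDH_Mutant 3. It had folds of 1.62, 1.70 and 1.70, percentiles of 35.9, 37.7 and 31.3, and widths of 2793, 1539 and 2086 bp. No peak was called there in PDH_Mutant 1 or PDH_Mutant 2, which hold the shortest lists. The 3 peaks were wide for their lists, at the 97.5, 83.2 and 94.4 percentile of width, and weak in fold. With promoters taken as 1000 bp, Il7r had a promoter peak in no library.

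Il2ra, the alpha chain that gives the IL-2 receptor its high affinity, lies at chr2:11642807-11693193 on the forward strand. Its strongest peak of its own was upstream, at chr2:11635200-11637701, and was called in all 5 libraries with folds of 2.28 and 2.11 in WT and 2.23, 2.30 and 2.24 in TPdh-/-. Its ranks were 296 and 768 in WT and 1472, 927 and 1080 in TPdh-/-, so it stood higher in both WT lists than in every TPdh-/- list even when counted from the top. The percentiles were 98.2 and 91.3 against 70.1, 82.9 and 88.5. By contrast, a broad peak over the first part of the gene was called in WT 1, WT 2 and PDH_Mutant 2, 1974, 2338 and 2141 bp wide, with percentiles of 34.0, 17.6 and 8.7. An intronic peak about 10 kb from the start, at 10249 bp in WT 2 and 10002 bp in PDH_Mutant 3, had percentiles of 36.1 and 36.5.

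Il21r, the chain that binds IL-21, lies at chr7:125603429-125633570 on the forward strand. Its window held 5 regions, each in a single library, 4 of them in WT 1 and 1 in WT 2. Their percentiles ran from 6.4 to 69.6, the highest being a peak of 592 bp centred at -9743 bp in WT 1. No TPdh-/- library had a peak in its window.

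IL-12 and IL-18 act together on T cells to raise interferon gamma. The IL-12 receptor is made of Il12rb1 and Il12rb2, and Il18r1 is the ligand-binding chain for IL-18. Il12rb2 (chr6:67291318-67376188, reverse strand) had a peak across its start site in WT 1, WT 2, PDH_Mutant 2 and PDH_Mutant 3, with percentiles of 71.9 and 57.9 in WT and 5.2 and 20.3 in TPdh-/-, and folds of 2.04, 2.21, 1.87 and 1.79. The 2 WT values lay above all 3 TPdh-/- values when the missing peak of PDH_Mutant 1 is counted as 0. How many coding promoters separated in this way was not counted, so this is not read as particular to Il12rb2. An intronic peak at chr6:67366153-67367990 ran the other way. It was called in all 5 libraries, and its percentiles were 31.0 and 20.0 in WT and 34.4, 35.8 and 54.5 in TPdh-/- (WT 25.5 ± 7.83, n = 2, TPdh-/- 41.5 ± 11.2, n = 3, exact permutation test, two-sided p = 0.2). Further into the gene, an intronic peak was called in WT 1 and PDH_Mutant 3 with percentiles of 80.6 and 36.5, and a peak at an internal start site was called in WT 1 alone. Beyond the gene end, a region near the start of Serbp1 had a peak in WT 1, WT 2 and PDH_Mutant 3, with percentiles of 62.3, 48.8 and 38.4.

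Il12rb1 (chr8:70808449-70821424, forward strand) had no peak in its body or at its promoter. The peaks in its window lay near start sites of neighbouring genes, at Mast3 in WT 1 and PDH_Mutant 3, with percentiles of 61.8 and 54.9, and at Arrdc2 in WT 1 and WT 2, with percentiles of 71.3 and 36.4. Il18r1 (chr1:40465552-40500854, forward strand) had a narrow promoter peak in WT 1 and PDH_Mutant 3, 617 and 609 bp wide, at the 13.9 and 40.0 percentile. This was the single receptor promoter whose highest percentile was in a TPdh-/- library by more than 1 percentile point. A broad peak of 2872 bp inside the gene, centred 10099 bp from the start, was called in WT 1 alone.

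Il6st encodes gp130, the signalling chain that IL-6, IL-27 and related cytokines share. Il6st (chr13:112464070-112510086, forward strand) had a promoter peak in 4 libraries, with percentiles of 78.7 and 19.5 in WT and 37.1 and 43.4 in PDH_Mutant 1 and 3, and folds of 2.08, 1.87, 2.23 and 2.08. The groups overlapped, since the WT 2 value lay below both of those TPdh-/- values, and no peak was called in PDH_Mutant 2. The peak was 2455 bp wide in WT 1, 1617 bp in WT 2, 1090 bp in PDH_Mutant 1 and 695 bp in PDH_Mutant 3.

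Ifngr1, the ligand-binding chain of the interferon gamma receptor, lies at chr10:19591949-19610229 on the forward strand and had the highest mean percentile of a promoter peak among the receptor genes, although its fold was below that of Il10rb in all 5 libraries. Its percentiles were 93.6 and 78.4 in WT and 70.4, 75.1 and 93.7 in TPdh-/-, its ranks were 1015 and 1913 against 1455, 1353 and 599, and neither separated the groups. Its folds were 2.16 and 2.09 in WT and 2.2, 2.21 and 2.31 in TPdh-/- (WT 2.12 ± 0.0492, n = 2, TPdh-/- 2.24 ± 0.0592, n = 3, exact permutation test, two-sided p = 0.2), lower in both WT libraries than in every TPdh-/- library. An upstream peak at chr10:19576891-19579780 was also called in every library, with percentiles of 34.6 and 31.0 in WT and 60.0, 48.4 and 63.1 in TPdh-/- and folds of 1.54 and 1.69 against 2.03, 1.86 and 1.81. It stood lower in both WT libraries by percentile, by fold and by rank from the top, at 10437 and 6112 against 1969, 2798 and 3472. The WT 1 peak was the widest there, at 2534 bp, and the others were between 822 and 1358 bp.

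Where promoter peaks were called, their centres lay mostly downstream of the gene start. The median centre of the receptor genes was 562 bp in WT 1, 429 bp in WT 2 and 581, 530 and 296 bp in PDH_Mutant 1, 2 and 3, where the medians over all coding genes were between 123 and 139 bp. Centres lay downstream at 7 of 8 receptor promoters in WT 1, 6 of 7 in WT 2, 3 of 3 in PDH_Mutant 1, 4 of 5 in PDH_Mutant 2 and 5 of 7 in PDH_Mutant 3, where between 62.8% and 64.4% of coding promoters did so.

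Over all windows, the peaks of the 5 lists merged into 39 regions where peaks shared at least 1 bp, of 18410 in the genome. A WT library had a peak in all 39, and 0 were in TPdh-/- libraries without a WT peak, a pattern of 8.46% of regions in the genome. WT 1 alone accounted for 18 of them, or 46.2%, where 30.9% of regions in the genome were in WT 1 alone. A further 7, or 17.9%, had a peak in all 5 libraries, beside 16.8% of regions in the genome. A single region, the one at Arrdc2 near Il12rb1, was in both WT libraries and in no TPdh-/- library, a pattern of 5.92% of regions in the genome. Of the 39 regions, 10 were at the promoter of their own receptor gene, 5 were near the start of another coding gene, and 19 were in 1 library.

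The 7 regions of all 5 libraries were the promoters of Il10rb and Ifngr1, the upstream regions of Il2ra and Ifngr1, the Il12rb2 intron, and a pair near the starts of Il15ra and Il18rap. Il15ra presents IL-15 to the beta and gamma chains and is the neighbour of Il2ra, and Il18rap is the signalling chain that pairs with Il18r1. The region at Il15ra (chr2:11705047-11706563) was the highest by fold, at 3.45 and 3.12 in WT and 2.94, 3.15 and 3.43 in TPdh-/-, and the groups overlapped. The region at Il18rap (chr1:40514478-40516815) had percentiles of 59.0 and 47.1 in WT and 27.1, 9.1 and 21.9 in TPdh-/-, with no overlap, while its folds of 2.27 and 2.35 against 2.49, 2.19 and 2.12 overlapped.

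**Figure D3:**
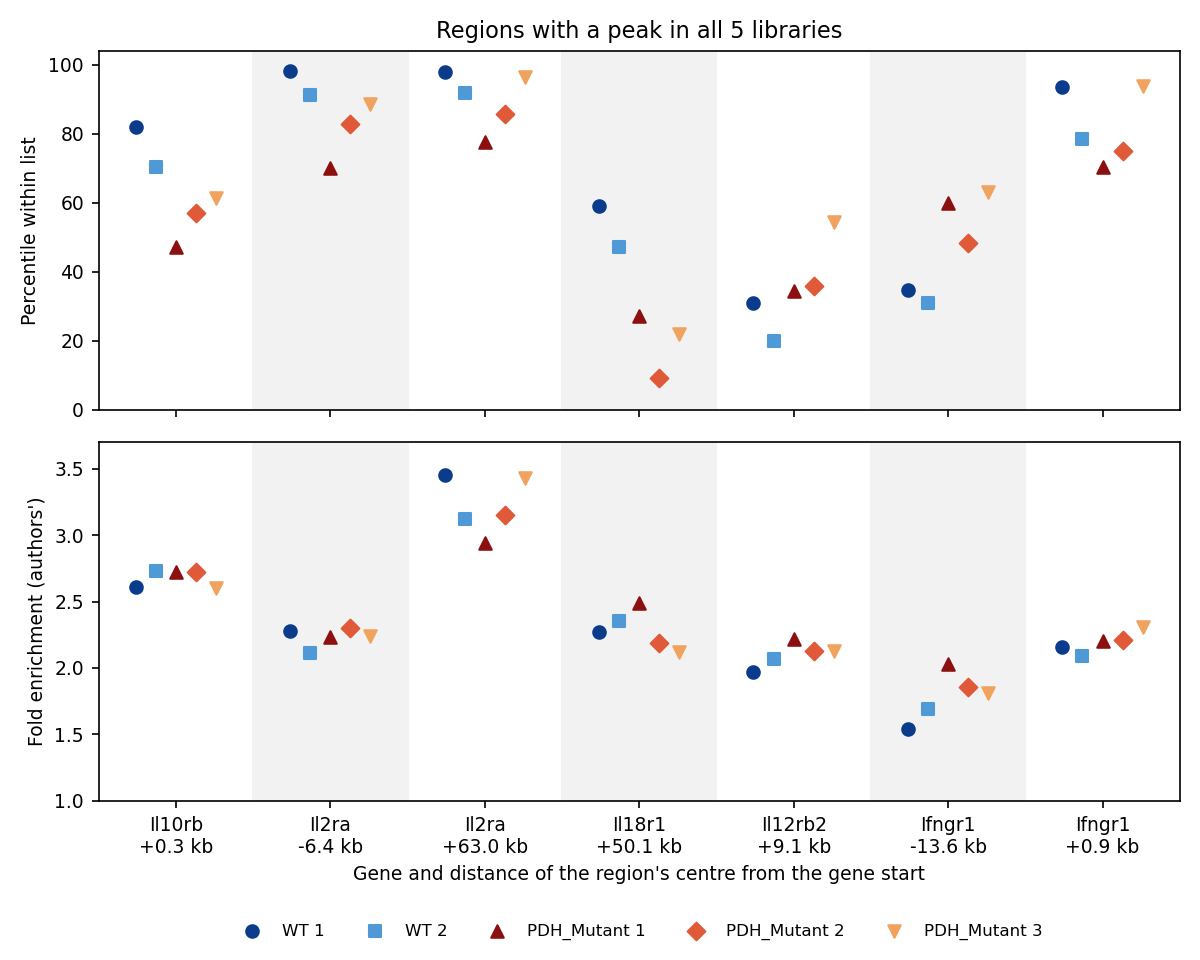
Percentile by −log10 q within the list (upper panel) and fold enrichment given by the authors (lower panel, axis from 1) of the 7 regions with a peak in all 5 libraries, 1 point per library. By percentile, 3 regions lie higher in both WT libraries and 2, the Il12rb2 intron and the Ifngr1 upstream region, lie lower, while by fold none lies higher and 3 lie lower.

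Direction in these 7 regions depended on the measure. By percentile, 3 stood higher in both WT libraries than in all TPdh-/- libraries, at the promoter of Il10rb, upstream of Il2ra and at Il18rap, and 2 stood lower, the Il12rb2 intron and the Ifngr1 upstream region. Of the 3099 regions of the genome with a peak in all 5 libraries, 29.5% stood higher in WT and 1.45% lower by percentile. By fold, 0 of the 7 stood higher in WT and 3 lower, where 12.6% of such regions stood higher and 11.6% lower. By rank number, 1 of the 7 stood nearer the top in both WT lists, the Il2ra upstream region, and 2 stood nearer the top in every TPdh-/- list, the Il12rb2 intron and the Ifngr1 upstream region, beside 7.91% and 18.2% of such regions. A percentile is a share of the whole list, so weaker peaks added below a peak raise it. A rank number depends only on the stronger peaks above it. How far list length shaped these directions was not tested. The Il2ra upstream region stood higher in WT by percentile and by rank. The Il12rb2 intron and the Ifngr1 upstream region stood lower in WT by percentile, rank and fold.

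The length covered by peaks was longer in WT in several windows. Over the 10 genes, the windows held 37 and 17 peaks in WT and 9, 10 and 17 in TPdh-/-, or 27.0 ± 14.1 (SD, n = 2) against 12.0 ± 4.36 (SD, n = 3), a difference of 15.0. Without WT 1 the difference was 5, and without WT 2 it was 25, so its size rested on which WT library was counted. For 6 genes, Il10rb, Il2ra, Il12rb1, Il21r, Il6st and Ifngr1, both WT libraries had more covered length than every TPdh-/- library, where 28.1% of the 14609 coding genes with a peak in their window did so. All peaks counted for Il12rb1 lay near the starts of Mast3 and Arrdc2, and its difference of 1388 bp became 0 and the count 5 genes once peaks near other coding start sites were left out. The opposite, less covered length in both WT libraries, held for 0 receptor genes and for 0.0685% of coding genes. With all peaks, Il10rb differed most in length, with 7136 and 5877 bp in WT against 2044, 800 and 1233 bp in the TPdh-/- libraries, a difference of the means of 5148 bp. That difference included the broad, weakly enriched peaks beyond the gene end, and it was 694 bp within the gene body alone, 522 bp with a −log10 q of at least 2, where Il18r1 differed by 3186 bp and Il12rb2 by 3038 bp, and 112 bp with lists of equal length. Il2ra came next among the genes without overlap, with 6277 and 6693 bp against 2106, 4455 and 4407 bp, a difference of 2829 bp. Each of these 6 genes reached a two-sided exact permutation p of 0.2 and an adjusted p of 0.71 over the 14609 genes. That p is the floor of this design, so no gene could pass 0.05. Any full separation of the groups gives it, whatever the spread between libraries.

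**Figure D4:**
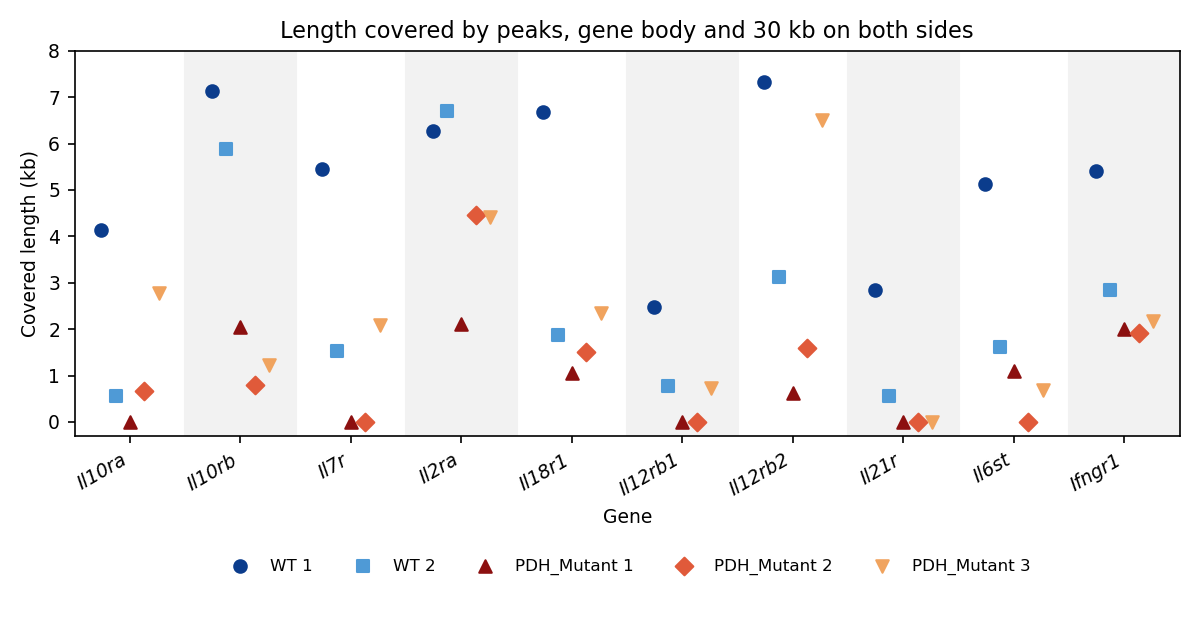
Length covered by peaks (vertical axis, kb) in the window of each receptor gene, with 1 point per library. Both WT points lie above all TPdh-/- points at 6 genes, and PDH_Mutant 3 lies above WT 2 at Il10ra, Il7r, Il18r1 and Il12rb2.

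At the other 4 genes the groups overlapped, with PDH_Mutant 3 above WT 2 at each. Il10ra had 4131 and 551 bp in WT against 0, 662 and 2788 bp in the TPdh-/- libraries (exact permutation test, two-sided p = 0.6, adjusted p = 0.86), and without WT 1 its mean was lower in WT, by -599 bp. Il7r had 5448 and 1539 bp against 0, 0 and 2086 bp, and Il12rb2 had 7323 and 3117 bp against 635, 1589 and 6510 bp. For Il7r, Il18r1 and Il12rb2 the two-sided exact permutation p was 0.4 and the adjusted p was 0.717.

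Because the lists differed in length, each list was also cut to its 4920 strongest peaks, the length of the shortest list. The weakest peak kept then had a −log10 q of 5.88 in WT 1 and 2.87 in WT 2. In PDH_Mutant 1, 2 and 3 it had 1.0, 1.46 and 3.29. The cut was therefore a different −log10 q threshold in each list. Promoter peaks were then left at 5 receptor genes in WT 1, 4 in WT 2, 3 in PDH_Mutant 1, 3 in PDH_Mutant 2 and 2 in PDH_Mutant 3, where 19.9%, 17.1%, 15.3%, 15.8% and 18.7% of coding genes kept one. Window peaks numbered 10 and 8 in WT and 9, 7 and 7 in TPdh-/-, close to level between the groups. The Il10ra promoter was kept in WT 1, WT 2 and PDH_Mutant 2, the Il12rb2 promoter in both WT libraries and no TPdh-/- library, and the Il7r peak in none. The Il10ra peak of PDH_Mutant 3 had a −log10 q of 3.21 and fell below the cut of its own list. The peaks kept in WT 2 and PDH_Mutant 2 had 2.95 and 2.62. The share of coding promoters with the Il12rb2 pattern at this list length was not counted, so it is not known whether that pattern was unusual. The Il10rb and Ifngr1 promoters, the Il2ra upstream region and the Il15ra region stayed in all 5. The Ifngr1 upstream region and the Il12rb2 intron were kept in all 3 TPdh-/- libraries and in no WT library, a pattern of 1.5% of the 8861 regions left in the genome. Both were called in both full WT lists, so they are not sites of TPdh-/- alone. At Ifngr1 a −log10 q of 2.93 was dropped in WT 1 and one of 2.74 was kept in PDH_Mutant 2. At the Il12rb2 intron 2.72 was dropped in WT 1 and 2.08 was kept in PDH_Mutant 1. The number of genes with more covered length in both WT libraries fell from 6 to 1, Il12rb2, where 19.6% of the 11153 coding genes with a peak left in their window had that pattern.

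Other genes of cytokine signalling were taken from named lists. For comparison, the shares of all coding genes with a promoter peak were 42.1% in WT 1, 24.8% in WT 2 and 15.3%, 16.5% and 27.9% in PDH_Mutant 1, 2 and 3. In all 5 libraries it was 10.9%. Of 12 other cytokine receptor chains, 10, 8, 7, 7 and 9 had a promoter peak in WT 1, WT 2 and PDH_Mutant 1, 2 and 3. Not all of these chains are partners of the receptor genes above. In all 5 libraries 7 of them did, among them Il2rg, the common gamma chain, while Il6ra, the ligand-binding IL-6 chain, and Il1rl1, the IL-33 receptor, had none. Il2rb, the beta chain for IL-2 and IL-15, had the same 3 libraries as Il7r, with percentiles of 35.5 and 31.1 in WT and 46.4 in PDH_Mutant 3. Those are the 3 longest lists, and the share of coding genes with this pattern was not counted. Of 16 JAK-STAT and adaptor genes, 13, 10, 10, 6 and 13 had one, and Tyk2, Socs1 and Socs3 had none. Of 12 ligand genes, 4, 1, 1, 0 and 1 had one, which were Il18 in 4 libraries and Il12a, Ifng and Il15 in WT 1 alone. Il18 had percentiles of 68.1 and 20.5 in WT and 8.0 and 53.4 in PDH_Mutant 1 and 3.

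The coding genes whose promoter percentiles were most like those of Il10ra over the 5 libraries were Sppl2a, Hnrnpc and Ppil4, with summed absolute differences of 11.4, 15.9 and 20.2 percentile points. Those most like Il7r were Tac4, Fbxo47 and Dnajc2, with 5.14, 13.6 and 14.7. Such likeness over 5 libraries of unequal list length is a description of which libraries had a peak.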

How the data were processed

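Peak lists of 5 ChIPseq libraries were analysed, 2 of WT and 3 of TPdh-/- TM cells, grouped by their labels. The study describes more ChIPseq samples per condition, and the others were not analysed here. The authors checked reads with FastQC 0.11.9, aligned them to GRCm38/mm10 with BWA-mem 0.7.17, kept uniquely mapping reads outside blacklisted regions with SAMtools 1.15.1 and called broad peaks for each library with MACS2 2.2.6. No input library is named in the sources used here. DiffBind 3.2, ChIPseeker 1.28.3 and R 4.1.0 also stand in the submitters' processing notes. The deposited lists give each peak's start and end, its fold enrichment, a linear ratio to the background that the caller estimated, and the authors' −log10 p and −log10 q. Other deposited fields, a display score among them, were not used. Read depth is not in the lists, so no interval for counting error is given.

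Genes and start sites came from GENCODE M21. The window of a gene was its body and 30 kb on both sides, and a promoter peak lay within 3000 bp of any annotated start site of the gene. A peak in the window was placed as promoter, exon, intron, upstream or downstream. The percentile is the share of a list with a −log10 q at or below that of the peak. Covered lengths were compared gene by gene by an exact permutation test over the 10 divisions of 5 libraries into 2 and 3, the two-sided p being double the smaller one-sided p, with Benjamini-Hochberg adjustment over 14609 genes. A gene counted as separated where the groups did not overlap. Computation used Python 3.11.15, numpy 2.4.6, pandas 2.3.3, scipy 1.17.1 and matplotlib 3.10.9 and was tested on simulated data. Promoter sequences came from RefSeq on GRCm38 and region sequences from the GRCm38 genome.

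The receptor genes and the lists were chosen with earlier results of these data known. All receptor genes are named, and of the other lists those with a promoter peak in no library, ligands with one in any library, neighbours with a start site within 3000 bp of a window peak, and the 3 coding genes most like Il10ra and Il7r. Il2rb, Il2rg, Cd8a and Cd8b1 were named after their values were seen. A further marker list is not reported here. Alternatives were stricter lists with a minimum −log10 q of 2 or of 5, equal list length, windows of 10 kb or the gene body, promoters of 1000 bp, the gene start alone as start site, an overlap of 50% of the shorter peak, peaks near other genes left out, a block for the replicate number, and each library left out in turn.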

Additional observations from a re-analysis of the deposited data

How the results depend on the processing

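Of the main values recomputed under the alternatives, 43 stayed within the spread between libraries or within 1.5 times the count reported, and all differences between the groups in number of receptor genes with a promoter peak and in number of window peaks kept their direction. The other 16 moved as follows. With a −log10 q of at least 2, 3 genes had more covered length in both WT libraries, in place of 6. With at least 5, 1 gene did, 0 regions had a peak in all 5 libraries and 0 stood higher in WT by percentile. With lists of equal length, the difference in window peaks was 1.33 in place of 15, 1 gene had more covered length in WT, 4 regions were in all libraries in place of 7, and 1 stood higher in WT in place of 3. With windows of 10 kb, 4 regions were in all libraries. Within gene bodies the difference in window peaks was 5.67, 3 regions were in all libraries and 1 stood higher in WT. Leaving out each library in turn gave between 1.5 and 3.5 genes for the difference in promoter peaks, between 5 (without WT 1) and 25 (without WT 2) for window peaks, between 6 and 10 (without WT 2) genes with more covered length in WT, between 7 and 9 shared regions, and between 3 and 5 (without PDH_Mutant 3) of them higher in WT. Of 110 covered lengths of single genes under alternatives, 101 differences were above 0, 7 were at 0 and 2 were below, Ifngr1 at -439 bp with lists of equal length and Il10ra at -599 bp without WT 1, against as much as 2981 bp without WT 2. Shorter lists and fewer libraries are part of how these alternatives are built, and no other cause was tested. Nothing says that libraries of the same number belong together. With the replicate number as a block, the differences were 3.5 genes and 17.5 window peaks, and 9 genes had more covered length in WT in both pairs, and the deviations of same-numbered libraries over the receptor genes correlated at -0.136 for number 1 and 0.673 for number 2. Depth and background signal, which are not in the lists, limit what a missing peak can show.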
